A study of Mus musculus with 4 samples.

Results

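Endothelial nuclei were singled out by their RNA among nuclei of mouse cortex and hippocampus, taken at 5 weeks of age. A nucleus was kept when it had more than 600 detected genes and less than 5% of its unique molecular identifiers (UMIs, the count of captured RNA molecules) on mitochondrial genes. It was called endothelial when at least 3 of the 6 genes Flt1, Cldn5, Pecam1, Adgrl4, Slco1a4 and Mecom had a UMI, when Slc17a7, Gad1 and Gad2 together had at most 1 UMI and when Slc6a13 and Bnc2 together had at most 1 UMI. This rule selected 261 of 36094 kept nuclei.

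Brain endothelial cells line the vessels and form the blood-brain barrier: tight junctions seal the gaps between them, transporters carry glucose, amino acids and hormones across, and efflux pumps return lipophilic compounds to the blood. Along the vessel tree they pass from arterial to capillary to venous states. They keep the barrier state under Wnt signals from neighbouring cells and sit in direct contact with pericytes and with the end-feet of astrocytes, so their nuclei are recovered together with those of other vascular cells.

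Both groups carried floxed Sel1L alleles on the C57BL/6J background (genotype labels Sel1L flox/flox, for libraries WT1 and WT2, and Sel1L Syn-Cre, for KO1 and KO2, written Sel1L fl/fl 1 and 2 and Sel1L SynCre 1 and 2 here). The Sel1L SynCre mice also carried a Cre driven by the Synapsin I promoter, which is active in neurons and not known for activity in endothelium, so a difference in endothelial nuclei would be one in cells that the promoter does not target. SEL1L is the partner of the ubiquitin ligase HRD1 in endoplasmic-reticulum-associated degradation (ERAD), which clears misfolded proteins from the endoplasmic reticulum. The 4 libraries, 2 for each genotype and each from 1 mouse, were made with 10x Genomics 3′ chemistry from sorted nuclei and held 122870443 and 76617523 UMIs (Sel1L fl/fl 1 and 2) and 75227337 and 74082610 UMIs (Sel1L SynCre 1 and 2). In each genotype replicate 1 carried the Y-linked Ddx3y (48.9 and 48.3 CPM in the kept nuclei, UMIs scaled to a total of 1000000) and replicate 2 carried Xist (1623 and 1488 CPM), so the genotypes were matched for sex.

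Cre and Sel1l were looked up first. The Cre RNA had 490, 0, 262 and 260 UMIs in the kept nuclei of Sel1L fl/fl 1, Sel1L fl/fl 2, Sel1L SynCre 1 and Sel1L SynCre 2, an order of libraries that is kept below unless stated. The library labelled Sel1L fl/fl 1 therefore held Cre RNA at 3.99 CPM, above both libraries labelled Sel1L SynCre (3.49 and 3.51 CPM), and the genotype named in each comparison below is that of the label. Endothelial nuclei had no Cre UMI in any library. Over their 756632 UMIs a count of 0 allows a level of up to 3.96 CPM (3 counts), and the pooled neuron nuclei had 3.48 CPM, so absence of Cre from endothelium could not be shown at this depth. Sel1l (ENSMUSG00000020964, chr12:91806043-91849157, minus strand, GRCm38) had 17, 1, 24 and 15 UMIs in endothelial nuclei. Reads at the 3′ end do not tell a deleted from an intact allele, and those counts check no label. In neurons Sel1l was 95.3, 89.0, 154 and 131 unscaled CPM (log2 fold change 0.58 ± 0.12, SE; edgeR adjusted p = 0.111), with both libraries labelled Sel1L fl/fl below both labelled Sel1L SynCre.

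The members came from all libraries: 90, 35, 83 and 53 nuclei with 246319, 72096, 243940 and 194277 UMIs in total and a median of 1921, 1660, 2017 and 2803 UMIs per nucleus. Sel1L fl/fl 2 was thus the shallowest endothelial sample, and Sel1L SynCre 2 had the fewest nuclei after it but the most UMIs per nucleus. Between any 2 libraries 9 to 32 cell barcodes of kept nuclei were shared, and none of these was a member in both.

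The genes of the rule describe the members, and no test of theirs is used. Flt1, a receptor for vascular endothelial growth factor, had a UMI in 95.8% of members, Slco1a4, a carrier of organic anions, in 92.7%, Mecom, a transcription factor, in 87.4%, Cldn5, the main claudin of the barrier's tight junctions, in 78.2%, Adgrl4, an adhesion receptor, in 77.4% and Pecam1, a junctional adhesion molecule, in 55.9%. Of the members, 29 had exactly 3 of the 6 genes, 59 had 4, 89 had 5 and 84 had all 6. Just outside the threshold lay 62 nuclei with 2 of the genes. They had a median of 4284.5 UMIs against 2242 in the nuclei with exactly 3, and Flt1 was seen in 32.3% of them against 82.8%. A further 29 nuclei with at least 3 genes were left out for their neuronal UMIs and 10 for fibroblast UMIs; the former had a median of 16672 UMIs.

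Genes outside the rule gave the same label. Of 12 further endothelial genes, at least 3 had a UMI in 88 of 90, 33 of 35, 82 of 83 and 44 of 53 members, in all 247 of 261 (94.6%, and 97.6% without Sel1L SynCre 2). The same was true of 1.06% of neuron nuclei, at a median of 12937 UMIs against 2016 in the members, of 0.817% of astrocyte nuclei (median 3416 UMIs) and of 0.172% of microglia and macrophage nuclei (median 1931 UMIs). These other classes held only nuclei with fewer than 2 of the rule's genes, so their low shares were in part set by that choice. Ptprb, the receptor phosphatase that restrains the angiopoietin receptor, was detected in 81.6% of members and in at most 4.98% of each other class. Slc2a1, the glucose carrier of the barrier, was detected in 81.2%, Abcb1a, the efflux pump P-glycoprotein, in 70.5%, Cyyr1 in 56.7%, Eng, a co-receptor for bone morphogenetic proteins, in 52.1%, Erg, an endothelial transcription factor, in 49.4% and Cdh5, the cadherin of endothelial adherens junctions, in 30.7%. Tek, the angiopoietin receptor, was less particular: it had a UMI in 55.6% of members and in 25.8% of neuron nuclei. Slco1c1, which carries thyroid hormone, was detected in 64.0% of members and 57.9% of astrocyte nuclei.

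**Figure D1:**
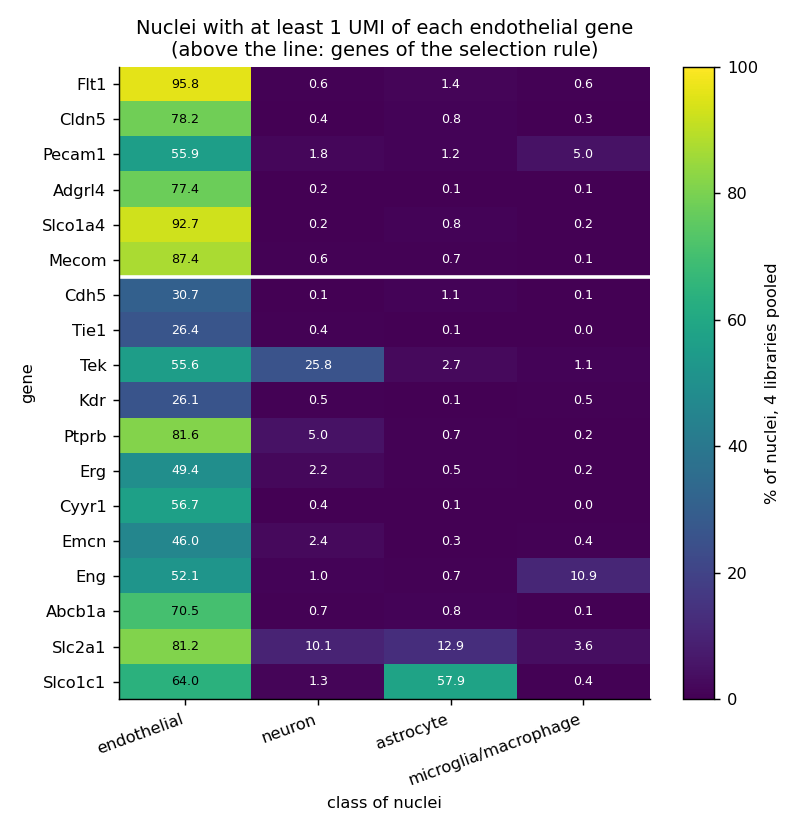
Share of nuclei, in %, with at least 1 UMI of each endothelial gene (rows) in endothelial, neuron, astrocyte and microglia or macrophage nuclei (columns), the 4 libraries pooled; genes above the white line chose the members. Endothelial nuclei have the highest share for every gene, and only Tek, Slc2a1, Slco1c1 and Eng exceed 10% in another class. Nuclei with 2 or more of the rule's genes were left out of the other classes.

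Across the transcriptome, 109 genes with at least 100 endothelial UMIs were at least 10-fold higher in endothelial nuclei than in the highest of the other 3 classes, by pooled CPM. Apart from the rule's genes the leading ones included Cyyr1 (484 CPM), Adgrf5 (563 CPM), an adhesion receptor, the transcription factor genes Zfp366 (288 CPM) and Sox17 (255 CPM), Ly6c1 (767 CPM), a surface protein of brain endothelium, and Nostrin (467 CPM), which binds endothelial nitric oxide synthase. Since whole genes were compared between classes chosen by expression, these are descriptions and no test was made. Rgs5, a gene of pericytes, also stood in the list (441 CPM).

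Endothelial nuclei made up 0.728% of kept nuclei in Sel1L fl/fl 1 (95% Wilson interval 0.593 to 0.894), 0.415% in Sel1L fl/fl 2 (0.298 to 0.576), 1.03% in Sel1L SynCre 1 (0.831 to 1.27) and 0.733% in Sel1L SynCre 2 (0.561 to 0.957). The groups did not overlap, but Sel1L fl/fl 1 and Sel1L SynCre 2 were apart by less than their counting error. The mean was 0.571% ± 0.221 (SD, n = 2) in Sel1L fl/fl and 0.881% ± 0.209 (SD, n = 2) in Sel1L SynCre. The difference of 0.310 percentage points had a two-sided exact permutation p of 0.333, the smallest that 6 arrangements of 4 libraries allow, so the design could not reach 0.05. A share of nuclei can also move with the recovery of any other class.

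**Figure D2:**
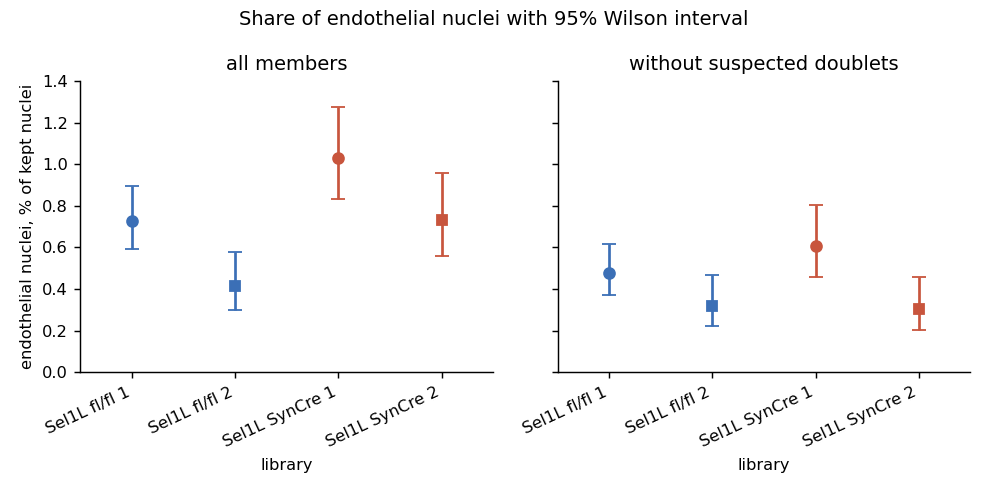
Endothelial nuclei as % of kept nuclei in each library (points, with 95% Wilson intervals that cover counting error only), for all members and without the suspected doublets. The libraries labelled Sel1L SynCre lie above those labelled Sel1L fl/fl for all members (0.733 and 1.03 against 0.415 and 0.728%), and the groups overlap without suspected doublets.

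Many members also held RNA of neighbouring cell types. A member was called a suspected doublet when at least 2 marker genes of the same other type had a UMI, be it pericytes, smooth muscle, fibroblasts, astrocytes, microglia, oligodendrocytes or their precursors. This applied to 31, 8, 34 and 31 members (34.4, 22.9, 41.0 and 58.5%), and most often to pericyte markers (51 members), astrocyte markers (50) and oligodendrocyte markers (31). Without them the share of endothelial nuclei was 0.477, 0.320, 0.608 and 0.304%, the groups overlapped, and the difference was 0.0572 percentage points (exact permutation p = 1). The groups also overlapped with at least 4 markers (difference 0.251) and with the rule applied after thinning to 1000 UMIs (0.239, exact permutation p = 0.667 for each). The share of suspected doublets followed the order of the median UMIs per member (1921, 1660, 2017 and 2803). A count of markers with a UMI also depends on depth, and the part of depth here was not tested.

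Sel1L SynCre 2 stood apart from the other libraries. The 12 endothelial genes outside the rule summed to 6317, 7296, 6830 and 3830 CPM, so this library was the lowest, while its 7 astrocyte markers were the highest (1088, 791, 1090.4 and 2249 CPM) and so were its 6 excitatory neuron markers (678, 610.3, 689 and 1946 CPM). Both sums were also higher in both libraries labelled Sel1L SynCre than in both labelled Sel1L fl/fl, with Sel1L SynCre 1 close to Sel1L fl/fl 1. Slc1a2 and Grin2a were the most abundant of these 2 lists, and every marker of both had a UMI in at least 1 library. Once suspected doublets were left out, the same endothelial genes summed to 8124, 7782, 7554 and 7028 CPM. Pericyte markers (8 genes), led by Rgs5, were lowest in Sel1L fl/fl 1 (422 against 1193, 1267 and 1107 CPM; 210, 39.9, 119 and 306 CPM without suspected doublets, where Pdgfrb, Abcc9 and Atp13a5 were at 0), and smooth muscle markers, led by Acta2, likewise (56.8 against 319, 258 and 427 CPM). In the gene comparison below, all 4 pericyte and all 4 smooth muscle markers tested had a positive log2 fold change (median 1.11 and 1.36). Atp13a5, Pdgfrb and Mylk were higher in Sel1L SynCre without overlap (edgeR unadjusted p = 0.00543, 0.0275 and 0.0322, adjusted p = 0.878 for each). Over all genes 17.8% were higher without overlap and 3.27% higher at an unadjusted p under 0.05. Oligodendrocyte markers, led by Mbp, were 1189.5 and 596 CPM in Sel1L fl/fl 1 and 2 and 266 and 263 CPM in Sel1L SynCre 1 and 2, without overlap. This order of genotypes was not particular to the members. The same markers summed to 266, 141, 114 and 98.1 CPM in neurons and 1640, 836, 405 and 300 CPM in astrocytes. In microglia and macrophages they summed to 1039, 712, 192 and 233 CPM. Fibroblast markers (8 genes, led by Ranbp3l, with Bnc2 at 0) summed to 56.8, 194, 94.3 and 190.4 CPM, inhibitory neuron markers (5) to 93.4, 27.7, 24.6 and 103 CPM, microglia and macrophage markers (7, led by Inpp5d) to 219, 97.1, 299 and 108 CPM and oligodendrocyte precursor markers (5, led by Lhfpl3) to 357, 97.1, 77.9 and 154 CPM. None of these 4 lists separated the genotypes. The part of these RNAs in the gene results below was not tested beyond the values given without suspected doublets, without members that had neuronal UMIs, with at least 4 markers or without a library.

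Other RNA of the preparation was present too. Ttr, made by the choroid plexus, led the 5 choroid plexus and ependyma markers, which summed to 187, 2372, 1939 and 1081 CPM, or 169.8, 79.8, 422 and 196 CPM without suspected doublets. Ttr had a UMI in 36.4% of members but also in 29.5% of neurons and 39.6% of astrocytes. Hemoglobin genes were 0.271, 0.168, 0.0947 and 0.142% of endothelial UMIs against at most 0.0130% in any library of the other 3 classes. Ribosomal protein genes were 1.01, 1.76, 2.17 and 1.86% of endothelial UMIs, lowest in Sel1L fl/fl 1.

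**Figure D3:**
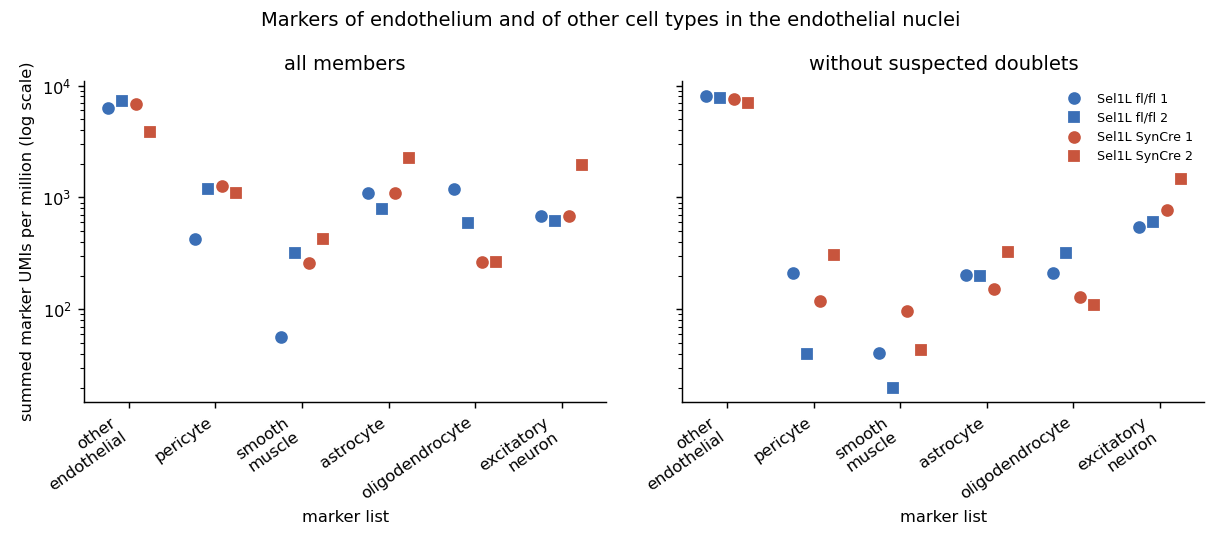
Summed CPM of marker lists (log scale) in the endothelial nuclei of each library, for all members (left) and without suspected doublets (right); the first list is the 12 endothelial genes that the rule did not use. Sel1L SynCre 2 has the lowest endothelial sum (3830 CPM) and the highest astrocyte (2249 CPM) and excitatory neuron (1946 CPM) sums among all members, and its endothelial sum is 7028 CPM without suspected doublets.

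Members were placed along the vessel tree after each nucleus was thinned to 1500 UMIs, which left 70, 22, 58 and 43 nuclei. Arterial-like nuclei had UMIs of at least 2 arterial genes and of more arterial than venous genes, and venous-like nuclei the reverse. Both classes are ranges of a count and not separate types, since 39 of the 193 nuclei had no gene of either list, 15 and 25 had exactly 1 arterial or 1 venous gene and none of the other, and 12 had 2 or more of both. Venous-like nuclei were 52.9, 40.9, 36.2 and 18.6% of nuclei and arterial-like nuclei 14.3, 22.7, 17.2 and 9.30%. The venous-like share was lower in both libraries labelled Sel1L SynCre, with means of 46.9% ± 8.45 and 27.4% ± 12.4 (SD, n = 2 each; two-sided exact permutation p = 0.333, the smallest possible). Without thinning the groups overlapped (51.1, 40.0, 44.6 and 30.2%; exact permutation p = 0.667). The arterial-like shares overlapped (exact permutation p = 0.667), and without thinning they ran the other way and did not overlap (18.9, 17.1, 24.1 and 22.6%; exact permutation p = 0.333).

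Gene counts were then summed over the members of each library and compared between genotypes with edgeR's quasi-likelihood test, in which 5228 genes passed the filter on low counts. No gene passed a Benjamini-Hochberg adjusted p of 0.05 (0% of genes called), and none passed with DESeq2. At an unadjusted p under 0.05 stood 265 genes with edgeR (5.07%) and 80 with DESeq2. Of the 265 genes, 171 (3.27% of genes tested) were higher and 94 (1.80%) lower in Sel1L SynCre. The median log2 fold change of all genes was 0.03, with 2749 positive and 2479 negative. Fewer endothelial cells and less RNA per cell do not enter these values, which are relative to the endothelial UMIs of the tested genes in each library. The lowest adjusted p was 0.878, so all that follows is given as values and not as changes. CPM in these gene comparisons are scaled by edgeR's TMM factors unless stated.

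The genes of lowest p that were lower in Sel1L SynCre included Nrp2, Col6a6 and Ahr. Nrp2, a co-receptor for vascular endothelial growth factor C and class 3 semaphorins found on veins and lymphatics (chr1:62703285-62818695, plus strand, GRCm38), had 362, 386, 119.9 and 71.8 CPM from 77, 24, 25 and 11 UMIs. Both Sel1L fl/fl values lay above both Sel1L SynCre values, with a log2 fold change of -1.93 ± 0.42 (SE; edgeR unadjusted p = 0.00123, adjusted p = 0.878). Nrp2 UMIs were spread over 35, 10, 19 and 8 members with at most 8 in a nucleus. Without suspected doublets its level, in unscaled CPM, was 372, 459, 162 and 175, still without overlap. In neurons, astrocytes and microglia its unscaled levels were 40.4 to 97.7 CPM in all libraries, with a log2 fold change of -0.38 ± 0.10, 0.15 ± 0.22 and -0.05 ± 0.18 (SE).

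Col6a6, a chain of collagen VI (chr9:105687809-105828160, minus strand), had 21, 9, 1 and 0 UMIs, or 98.7, 145, 4.80 and 0 CPM. The genotypes did not overlap (log2 fold change -5.03 ± 0.90, SE; edgeR unadjusted p = 0.000309), but the size of the fold change was not fixed by these counts: it was -3.06 ± 0.55 with a prior count of 2 and -7.04 ± 1.49 without Sel1L SynCre 1, where the other library had 0 UMIs. The few UMIs lay in 11, 4, 1 and 0 members. Ahr, the receptor for dioxin-like and dietary ligands (chr12:35497974-35535038, minus strand), had 89.3, 177, 14.4 and 19.6 CPM from 19, 11, 3 and 3 UMIs, again without overlap (log2 fold change -2.79 ± 0.64, SE; edgeR unadjusted p = 0.0018). Both kept their separation without suspected doublets, in unscaled CPM at 113, 159.6, 10.8 and 0 for Col6a6 and 137, 199.5, 10.8 and 65.5 for Ahr. The last value rested on 3 UMIs.

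Bcas1, a gene of newly myelinating oligodendrocytes, was also among the genes of lowest p in this direction, with 169, 64.4, 14.4 and 19.6 CPM. The genotypes did not overlap, and the oligodendrocyte markers above were higher in the same libraries. Bcas1 was also lower in both libraries labelled Sel1L SynCre in neurons (17.1, 8.39, 4.46 and 4.17 unscaled CPM). The same held in astrocytes (97.3, 50.5, 36.5 and 49.2) and in microglia and macrophages (66.2, 36.8, 11.8 and 14.5). Of its 36 UMIs in Sel1L fl/fl 1, 28 lay in 1 nucleus, and without suspected doublets it was 16.2, 19.95, 10.8 and 0 unscaled CPM.

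Among the genes higher in Sel1L SynCre, Cdkn1a, which encodes the cell-cycle inhibitor p21 (chr17:29090976-29100727, plus strand), had 5, 0, 37 and 24 UMIs, or 23.5, 0, 177 and 157 CPM. These UMIs came from 4, 0, 23 and 13 members, and the genotypes did not overlap (log2 fold change 3.21 ± 0.66, SE; edgeR unadjusted p = 0.000791, adjusted p = 0.878). Leaving out suspected doublets gave 16.2, 0, 129.9 and 175 unscaled CPM. Endothelial nuclei had more Cdkn1a than the other 3 classes in every library but Sel1L fl/fl 2, where they had 0 UMIs. It was 1.51, 1.03, 3.18 and 3.57 unscaled CPM in neurons and 0.681, 1.33, 6.71 and 7.49 in astrocytes, also without overlap, and 1.38, 4.60, 5.05 and 0 in microglia and macrophages, where the genotypes overlapped. Without the library labelled Sel1L fl/fl 1, which held Cre RNA, Cdkn1a was 1 of 10 genes that passed an adjusted p of 0.05 in edgeR (adjusted p = 0.0305), a fit in which the 0 UMIs of Sel1L fl/fl 2 stood alone for their genotype and whose fold change is no bound. In the same fit Nrp2 had -1.97 ± 0.60 (SE, adjusted p = 0.165) and Ahr -3.32 ± 1.05 (adjusted p = 0.184).

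Slc38a11 and Pdzrn3 depended on suspected doublets. Slc38a11, of a family of amino acid transporters, had 0, 0, 21 and 12 UMIs, so Sel1L SynCre was at least 7.99-fold higher than the limit of 3 counts over the Sel1L fl/fl group. All of these UMIs lay in suspected doublets, since it was at 0 in every library without them. Pdzrn3, a ubiquitin ligase also abundant in neurons, had 32.9, 16.1, 163 and 215 CPM, but 16.2, 19.95, 0 and 43.6 unscaled CPM without suspected doublets, where the genotypes overlapped. The gene mt-Nd3, for a mitochondrial subunit of respiratory complex I, had 47.0, 64.4, 211 and 196 CPM, and without suspected doublets 32.3, 19.95, 75.8 and 175 unscaled CPM, still without overlap. All mitochondrial genes together were 0.682, 0.964, 1.23 and 0.860% of endothelial UMIs, where the genotypes overlapped.

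**Figure D4:**
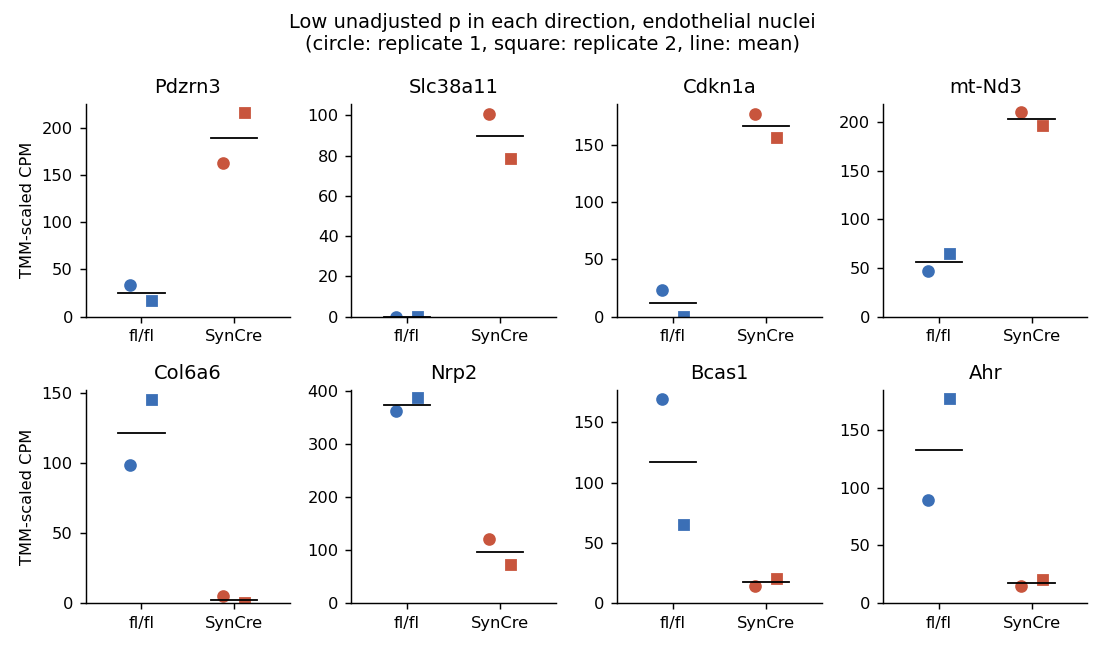
TMM-scaled CPM (linear axis from 0) of 4 genes of low unadjusted p in each direction in the endothelial nuclei of each library; circles are replicate 1, squares replicate 2 and lines the mean of 2 libraries. The genotypes do not overlap for any of the 8 genes, with Nrp2 at 362 and 386 against 119.9 and 71.8 CPM and Cdkn1a at 23.5 and 0 against 177 and 157 CPM; non-overlap in one or the other direction held for 17.8 and 16.8% of all genes tested.

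Genes of the barrier were examined by their roles. Tight and adherens junctions had 16 of 19 genes tested, none with an unadjusted p under 0.05, a median log2 fold change of -0.24, and 5 genes lower and 0 higher without overlap between genotypes (over all genes, 16.8% lower and 17.8% higher). Cldn5 and Pecam1 of this list chose the members; without them 14 genes had a median of -0.24 and 5 lower and 0 higher without overlap, a choice made after seeing the data. Tjp1, the scaffold ZO-1, had 2311, 2237, 2067 and 1279.7 CPM (log2 fold change -0.44 ± 0.45, SE), and Cldn5 had 747, 1722, 2139 and 1038 CPM. The lowest Tjp1 value was that of Sel1L SynCre 2, as for the endothelial markers as a whole, and without that library the median of the list was 0.18. Solute carriers had 17 of 20 genes tested, none at an unadjusted p under 0.05, with a median of -0.33 and 3 genes higher and 5 lower without overlap, and without Slco1a4, a gene of the rule, the median was -0.28, with 3 higher and 4 lower. Slc2a1, the glucose carrier, had 1080.5, 1368, 1592 and 1058 CPM (0.12 ± 0.44), and Slc6a6, the taurine carrier, 1508, 1416, 1089 and 535 CPM (-0.85 ± 0.48). The 4 efflux pumps tested, of 6, overlapped between genotypes. Abcc4 had 987, 756, 1103 and 738 CPM (0.07 ± 0.44), Abcg2 had 822, 1368, 1017 and 705 CPM (-0.33 ± 0.46) and Abcb1a, or P-glycoprotein, 747, 949.6, 748 and 639.9 CPM (-0.28 ± 0.42). Receptors and coat proteins of transcytosis had 12 of 17 genes tested and a median of -0.02. Among them Bsg, the chaperone of lactate carriers, had 2147, 3589, 3861 and 2331 CPM (0.12 ± 0.49), Igf1r, a receptor for insulin-like growth factor, 2443, 2672, 2744 and 2063 CPM (-0.09 ± 0.44) and Tfrc, the transferrin receptor, 606, 966, 528 and 444 CPM (-0.67 ± 0.44).

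Genes of vessel zones, which also define the zone classes above, were lowest on the venous side. Of 11 venous genes 8 were tested, with a median log2 fold change of -0.76, and 4 were lower and 0 higher without overlap (beside 16.8 and 17.8% of all genes). Icam1, a leukocyte adhesion receptor, was the single gene at an unadjusted p under 0.05 (84.6, 161, 52.8 and 32.6 CPM, log2 fold change -1.33 ± 0.55, edgeR unadjusted p = 0.0388). At that threshold 1.80% of all genes were lower, and 5.07% in either direction. Il1r1, the interleukin-1 receptor, had 658, 547, 777 and 326 CPM (-0.13 ± 0.49, SE) and Vwf, von Willebrand factor, 597, 740.4, 451 and 150.2 CPM (-1.13 ± 0.54). Vwf was lower in both libraries labelled Sel1L SynCre, whereas Il1r1 was highest in one of them. The venous median was -0.34 without Sel1L SynCre 2, and it was -0.12 over the 5 genes that passed the filter without suspected doublets. Arterial genes (7 of 15 tested) had a median of -0.13, with Mgp, an inhibitor of calcification, at 216, 756, 566 and 346 CPM, and capillary genes (7 of 7) a median of -0.05, with the chemokine gene Cxcl12 at 916, 1400.3, 1799 and 1254 CPM.

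For signalling genes, the single members with an unadjusted p under 0.05 that follow stand beside 5.07% of all genes (3.27% higher and 1.80% lower), and 1 gene in a list of this size is near that share. In the Wnt and beta-catenin pathway, 20 of 22 genes were tested with a median of -0.05. Lef1, its nuclear effector, had 1344, 821, 806 and 542 CPM (log2 fold change -0.69 ± 0.46, SE) and Apcdd1, a target and inhibitor, 376, 435, 513 and 359 CPM (0.12 ± 0.41). Lrp5, a Wnt co-receptor, was the single gene with an unadjusted p under 0.05, at 28.2, 0, 86.3 and 78.4 CPM (1.95 ± 0.73, edgeR unadjusted p = 0.0253). The list of vascular endothelial growth factor, angiopoietin and sprouting genes had 10 of 21 genes tested and a median of -0.16 (-0.13 without Flt1, a gene of the rule). Apart from Nrp2, described above, Ptprb had 1579, 1690, 1419.8 and 653 CPM (-0.65 ± 0.49) and Tek 620.1, 306, 552 and 235 CPM (-0.27 ± 0.53). In the Notch, TGF-beta and BMP pathways 18 of 23 genes were tested with a median of -0.15, and Id1, a target of BMP signals, had 512, 756, 1113 and 503 CPM (0.37 ± 0.50). Id2, of the same family, was the single gene of that list at an unadjusted p under 0.05 (28.2, 16.1, 57.6 and 91.4 CPM, 1.52 ± 0.67, edgeR unadjusted p = 0.0472). Without suspected doublets Id2 was 32.3, 19.95, 43.3 and 0 unscaled CPM, where the genotypes overlapped. In astrocytes Id2 was at 100, 122, 159 and 146 unscaled CPM. Flow-responsive genes (8 of 12) had a median of -0.01, with Klf2, induced by laminar flow, at 389.9, 692, 1094 and 424 CPM. Genes of leukocyte adhesion, cytokines and interferon (14 of 26) had a median of -0.19, with the class I histocompatibility gene H2-D1 at 409, 579, 672 and 522 CPM (0.29 ± 0.42) and Icam1, given above with the venous genes, as the single gene at an unadjusted p under 0.05. Basement membrane and integrin genes (12 of 16) had a median of -0.08; Itga1, a collagen receptor subunit, had 338, 467, 479.7 and 307 CPM, and Lama4, the laminin chain of vessels, was the single gene at an unadjusted p under 0.05 (216, 177, 81.5 and 91.4 CPM, -1.21 ± 0.40, edgeR unadjusted p = 0.0133). None of the 12 genes of cell division passed the filter, and 5 of them had a UMI.

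Stress responses of the endoplasmic reticulum were examined because cells that lack SEL1L are known to raise them. Of 30 genes of ERAD, chaperones and the unfolded protein response, 19 were tested in endothelial nuclei and none had an unadjusted p under 0.05. The median was 0.06, with 5 higher and 1 lower without overlap (beside 17.8 and 16.8% of all genes). Dnajc3, a co-chaperone, had 132, 161, 177 and 157 CPM (log2 fold change 0.23 ± 0.39, SE), Hsp90b1, the chaperone GRP94, 113, 64.4, 216 and 157 CPM (0.96 ± 0.44), and Canx, the lectin chaperone calnexin, 127, 145, 163 and 131 CPM (0.15 ± 0.40). Hspa5, the chaperone BiP, had 79.9, 16.1, 139 and 118 CPM (1.10 ± 0.56), where the value of Sel1L fl/fl 2 rested on 1 UMI. Sel1l itself was at 79.9, 16.1, 115 and 97.9 CPM (0.83 ± 0.57), also from 1 UMI in that library. The same 19 genes had a median of 0.58 in neurons, where 4 (Herpud1, Dnajc3, Ddit3 and Hspa5) passed an adjusted p of 0.05 in edgeR. Of the 5169 genes that passed the filter in both classes, 0.213% were called in neurons. There Hspa5 had a log2 fold change of 1.34 ± 0.15 (SE, adjusted p = 0.0353) and Herpud1, an ERAD factor induced by the unfolded protein response, 1.32 ± 0.12 (adjusted p = 0.0175), against -0.34 ± 0.45 for Herpud1 in endothelial nuclei. The difference between endothelial nuclei and neurons for Herpud1 was -1.70 ± 0.46 (SE, edgeR interaction with the library as a block, unadjusted p = 0.00405, adjusted p = 0.701), and for Hspa5 -0.30 ± 0.54 (adjusted p = 0.98). Genes of the integrated stress response and targets of ATF4 had 11 of 34 genes tested and a median of 0.24. Mthfd1l, a mitochondrial enzyme of folate metabolism, was the single gene at an unadjusted p under 0.05 (75.2, 113, 14.4 and 39.2 CPM, -1.76 ± 0.67, edgeR unadjusted p = 0.0267). At that threshold 1.80% of all genes were lower, and 5.07% in either direction. Slc7a5, a large neutral amino acid carrier that the barrier expresses at all times, had 677, 869, 729 and 385 CPM (-0.46 ± 0.46), and Slc7a1, a carrier of cationic amino acids, 329, 499, 648 and 568 CPM (0.58 ± 0.42). Genes of hypoxia and glycolysis (6 of 16) had a median of 0.31, with Epas1, which encodes HIF-2 alpha, at 686, 644, 1166 and 816 CPM (0.57 ± 0.43).

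Genes that respond to glucocorticoids had the highest median of the function lists, 0.69 over 13 of 20 genes tested, with 10 positive and 3 negative. Of these, 3 had an unadjusted p under 0.05 (beside 3.27% of all genes in this direction) and 6 were higher and 1 lower without overlap (beside 17.8 and 16.8% of all genes). The 3 genes were Cdkn1a, given above, Tsc22d3, the leucine zipper protein GILZ, at 75.2, 80.5, 221 and 169.8 CPM (log2 fold change 1.34 ± 0.42, SE, edgeR unadjusted p = 0.0107), and Mt2, a metallothionein, at 47.0, 32.2, 115 and 157 CPM (1.65 ± 0.51, edgeR unadjusted p = 0.00968). Without suspected doublets Tsc22d3 was 56.6, 59.9, 151.5 and 175 unscaled CPM, and Mt2 rested on 0, 0, 4 and 3 UMIs. Mt2 was at 96.6, 171, 201 and 233 unscaled CPM in astrocytes, and all 5 astrocyte markers tested in the members had a positive fold change (median 0.98). The most abundant members overlapped or ran the other way: Zbtb16, a transcriptional repressor, had 268, 837, 489 and 535 CPM (-0.05 ± 0.55), and Nr3c1, the glucocorticoid receptor itself, 507, 402, 312 and 248 CPM (-0.71 ± 0.40). Fkbp5, a co-chaperone of that receptor, had 84.6, 161, 153 and 209 CPM in endothelial nuclei (0.69 ± 0.46). In astrocytes it had a log2 fold change of 3.28 ± 0.27 (SE, edgeR adjusted p = 6.13e-08) and in microglia and macrophages 2.05 ± 0.24 (adjusted p = 0.00596). The endothelial difference from astrocytes was -2.62 ± 0.46 (SE, edgeR interaction, unadjusted p = 0.000146, adjusted p = 0.423) and was not past the threshold. Of 14 immediate early genes 6 were tested, with a median of 0.21. Btg2, an antiproliferative factor, was the single gene at an unadjusted p under 0.05 (75.2, 48.3, 182 and 235 CPM, 1.63 ± 0.44, edgeR unadjusted p = 0.00465), beside 3.27% of all genes in this direction. Ier3, the most abundant of that list, had 169, 225, 139 and 169.8 CPM (-0.31 ± 0.39).

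Genes of the circadian clock were picked after their values had been seen, and are given without any test over the group. The clock is a loop in which the activators ARNTL (BMAL1), CLOCK and NPAS2 switch on the Per, Cry, Nr1d, Dbp, Tef and Ciart genes, and the products of the Per, Cry and Nr1d genes repress the activators or their RNA in turn, so RNAs of both arms peak at opposite times of day. Of 19 genes, 13 were tested in endothelial nuclei. An unadjusted p under 0.05 was found for 8 of them, 2 higher and 6 lower in Sel1L SynCre (beside 3.27 and 1.80% of all genes), and for 5 with DESeq2, for 4 of 8 tested with members that had no UMI of the 3 neuronal genes, for 2 of 12 without Sel1L fl/fl 1, the library labelled as control that held Cre RNA, and for 4 of 14 without Sel1L SynCre 1. Only 3 passed the filter without suspected doublets, 1 of them at an unadjusted p under 0.05. None had an adjusted p under 0.05 in the main edgeR fit or with DESeq2, and Arntl passed with the likelihood ratio test (adjusted p = 0.0145). Without Sel1L fl/fl 2 the log2 fold change of Npas2 was 3.20 ± 0.80 (SE). That fit left Sel1L fl/fl 1, which held Cre RNA, alone for its genotype.

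On the activator side, Arntl had 2, 0, 18 and 13 UMIs, or 9.4, 0, 86.3 and 84.9 CPM (log2 fold change 3.45 ± 0.83, SE; edgeR unadjusted p = 0.0024), from 2, 0, 9 and 11 members. Npas2 had 14.1, 64.4, 95.9 and 196 CPM (2.32 ± 0.73) and Clock 155, 145, 221 and 202 CPM (0.48 ± 0.38). Without 1 library Npas2 ran from 1.16 ± 0.78 (without Sel1L fl/fl 1) to 3.20 ± 0.80 (without Sel1L fl/fl 2). On the side of their targets, Per3, a period gene, had 263, 209, 71.9 and 97.9 CPM (-1.51 ± 0.40, edgeR unadjusted p = 0.00443), from 33, 12, 13 and 8 members. Dbp, a transcription factor of the clock's output, had 146, 64.4, 24.0 and 32.6 CPM (-2.05 ± 0.58) and Ciart, a repressor of ARNTL and CLOCK, 70.5, 64.4, 4.80 and 13.1 CPM (-2.92 ± 0.90). Per2, Tef and Nr1d2 were at -1.75 ± 0.61, -1.19 ± 0.46 and -1.06 ± 0.45. Without 1 library Tef ran from -1.56 to -0.59 (the latter without Sel1L fl/fl 1). Nr1d2 ran from -1.53 to -0.68 (the latter without Sel1L SynCre 1). In each of the 8 genes with an unadjusted p under 0.05 the genotypes did not overlap (17.8% of all genes were higher and 16.8% lower without overlap). Their values rest on 22 (Ciart) to 99 (Per3) UMIs over the 4 libraries. Without suspected doublets Npas2 (16.2, 79.8, 75.8 and 43.6 unscaled CPM) and Tef (169.8, 79.8, 97.4 and 130.9 unscaled CPM) overlapped between genotypes. The other 6 did not, but on very few UMIs, such as 14, 1, 1 and 0 for Dbp and 1, 0, 5 and 2 for Arntl. Npas2 was at 159, 170.1, 365 and 325 unscaled CPM in astrocytes, whose markers were highest in Sel1L SynCre 2 among the members. The fold change of Arntl was 6.61 ± 2.36 (SE) without Sel1L fl/fl 1, where the comparison was with 0 UMIs, and 2.33 ± 0.56 with a prior count of 2. Per1, which also answers to glucocorticoids, had 61.1, 145, 81.5 and 78.4 CPM (-0.16 ± 0.55).

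In astrocytes, a class with more UMIs, Dbp (log2 fold change -1.63 ± 0.23, SE, edgeR adjusted p = 0.000138), Nr1d2 (-0.85 ± 0.18, adjusted p = 0.00838), Npas2 (1.06 ± 0.17, adjusted p = 0.000533) and Arntl (0.80 ± 0.21, adjusted p = 0.0463) passed the threshold. Of the 4942 genes that passed the filter in both classes, 2.39% were called in astrocytes. In microglia and macrophages none of these genes passed, and Arntl and Dbp were at 0.97 ± 0.24 and -1.52 ± 0.35 (SE). There Npas2 and Per1 had the other sign than in endothelial nuclei, at -0.18 ± 0.33 and 1.28 ± 0.33. Microglial Npas2 and endothelial Per1 lay within their SE of 0, and neither gene's interaction passed (edgeR, adjusted p = 0.987 for each). Per1 was also higher in both libraries labelled Sel1L SynCre in astrocytes (45.6, 59.8, 68.9 and 113 unscaled CPM) and in neurons (22.6, 24.4, 36.7 and 56.9). In neurons Arntl had 0.24 ± 0.11, Per3 -0.02 ± 0.13 and Dbp -0.88 ± 0.27 (SE). For Arntl the endothelial difference from neurons was 3.33 ± 0.77 and for Per3 -1.50 ± 0.39 (SE, edgeR interaction, each adjusted p = 0.701), not past the threshold. The classes come from the same 4 mice, so agreement between them is no further evidence on genotype. The time of day of collection is not given in the sources used here and cannot be told apart from genotype with 2 mice a group.

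**Figure D5:**
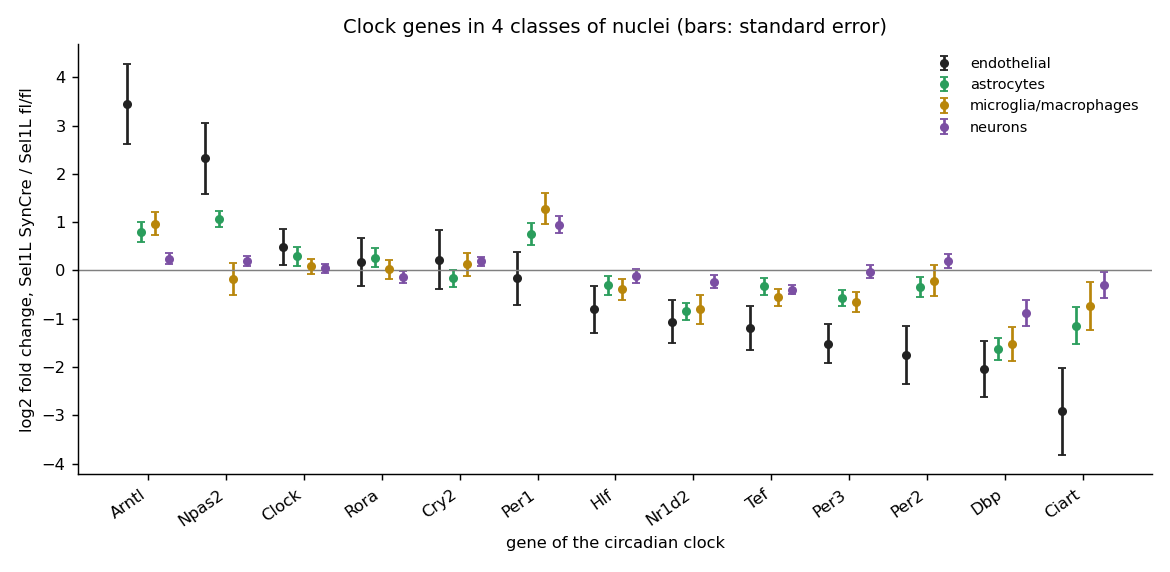
Log2 fold change (Sel1L SynCre over Sel1L fl/fl, edgeR, bars are the standard error) of the 13 clock genes tested in endothelial nuclei, in 4 classes of nuclei. Arntl and Npas2 lie above 0 in endothelial nuclei (3.45 and 2.32) and in astrocytes (0.80 and 1.06), and Dbp and Ciart below 0 in all 4 classes; no endothelial value passed an adjusted p of 0.05.

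Promoters of clock genes are shown because 2 of them hold more than 1 copy of a known clock motif beside the start site. RefSeq (GRCm38.p6) gave the 250 bases before the start of 16 of the 19 genes. The E-box CACGTG, bound by ARNTL with CLOCK or NPAS2 and the same on both strands, was in 5 of the 16 and in 6.02% of all 32851 promoters of that length. The D-box TTATGTAA (TTACATAA on the other strand), bound by DBP, TEF and HLF, was in 1 of the 16 and in 0.819% of all. The half-site AGGTCA of the NR1D and ROR receptors, read as TGACCT on the other strand, was in 3 of the 16 and in 14.0% of all. No motif overlaps another here. Ciart (chr3:95882229-95882478, minus strand) has 3 E-boxes, whose first bases lie 116, 58 and 44 bases before the start, and Per3 (chr4:151044666-151044915, minus strand) has 2 D-boxes, 205 and 158 bases before the start. Capitals mark the motifs, and each sequence runs 5′ to 3′ on the strand of the gene.
Ciart: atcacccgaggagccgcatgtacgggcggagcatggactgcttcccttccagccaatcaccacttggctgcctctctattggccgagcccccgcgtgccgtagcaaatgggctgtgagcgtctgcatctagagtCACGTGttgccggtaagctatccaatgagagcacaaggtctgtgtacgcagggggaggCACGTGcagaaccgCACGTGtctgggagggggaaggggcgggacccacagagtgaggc
Per3: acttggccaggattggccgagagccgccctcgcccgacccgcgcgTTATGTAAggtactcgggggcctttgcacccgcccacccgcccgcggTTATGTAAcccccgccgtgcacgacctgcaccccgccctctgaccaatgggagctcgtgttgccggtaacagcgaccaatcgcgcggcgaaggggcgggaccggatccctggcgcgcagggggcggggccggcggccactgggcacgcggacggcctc
A match of letters is a description and shows no binding in these nuclei.

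The genotype difference in endothelial nuclei was finally compared with that in 3 other classes of the same libraries. In edgeR's interaction test with the library as a block, none of 5169 genes differed between endothelial nuclei and neurons at an adjusted p under 0.05 (0% called, 294 at an unadjusted p under 0.05), none of 4942 between endothelial nuclei and astrocytes (233 unadjusted) and none of 4909 between endothelial nuclei and microglia and macrophages (179 unadjusted). DESeq2 called 6 genes against neurons and none against astrocytes or microglia, with 315, 81 and 77 genes at an unadjusted p under 0.05. Without Sel1L SynCre 1, which left Sel1L SynCre 2 as the single library of its genotype, 137 genes differed from astrocytes (113 of them more positive in endothelial nuclei) and 350 from microglia and macrophages (311 of them), and without Sel1L SynCre 2 these counts were 4 and 5.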

How the data were processed

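Nuclei of the cortex and hippocampus were stained with propidium iodide and sorted by the authors before library preparation. The authors' deposited matrices hold UMI counts per gene and barcode, made with Cell Ranger 6.1.0 on GRCm38 per the submitters' processing notes and not normalized. Kept here were barcodes above 600 genes and under 5% of UMIs on mitochondrial genes. The members, marker lists and gene lists were chosen with earlier results of these data known.

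Neuron nuclei had at least 3 UMIs of Slc17a7, Gad1 and Gad2, and astrocyte and microglia or macrophage nuclei at least 3 of their own markers and at most 1 of those UMIs. Each of these classes held only nuclei with fewer than 2 of the rule's genes, and nuclei in more than 1 class were left out. No doublet caller was run; members with 2 or more markers of another type were named suspected doublets and left out in an alternative. Counts were summed per library and class and fitted with edgeR 4.0.16 (R 4.3.3; quasi-likelihood test, TMM, filterByExpr, two-sided, Benjamini-Hochberg adjustment over all genes tested, fold changes with a prior count of 0.125). Interactions with another class had the library as a block and used genes that passed filterByExpr in both classes. Each library is 1 mouse, so p-values measure the spread between 4 mice. DESeq2 1.42.0 and the likelihood ratio test were alternatives, as were other normalizations, filters, member rules, thinning and leaving out each library. Shares were compared with exact permutation tests (scipy 1.17.1), and their intervals cover counting error only. The fits were tested on simulated data.

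The genes of the genotype comparison were named by rule: up to 10 in each direction past an adjusted p of 0.05 and, where fewer passed, the genes of lowest unadjusted p with at least 20 UMIs, up to 5 in each direction, of which 1 in each is not reported here. From each list the members of highest UMI count were named by the same rule; list members picked for an unadjusted p under 0.05, Hspa5, Herpud1, Fkbp5 and the clock genes were chosen after their values were seen. Gene positions are from GENCODE M21 on GRCm38, and promoters from RefSeq.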

Additional observations from a re-analysis of the deposited data

How the results depend on the processing

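No gene passed in the endothelial comparison (adjusted p under 0.05) with edgeR's main settings, nor with DESeq2, other size factors, stricter filters, stricter member rules or thinning. With no filter beyond 1 count 21 genes passed and with the likelihood ratio test 11. Leaving out 1 library gave 0 to 14 (10 without Sel1L fl/fl 1 and 14 without Sel1L fl/fl 2). With the replicate number as a block 0 genes passed and 153 had an unadjusted p under 0.05; numbers matched the sex of the mice, and 2 pairs are too few to show pairing. Against neurons DESeq2 gave 6, leaving out suspected doublets gave 5 and leaving out 1 library 0 to 7. Against astrocytes the latter 2 gave 42 and 2 to 137, and against microglia and macrophages 5 and 0 to 350. The highest of both came without Sel1L SynCre 1, where Sel1L SynCre 2 stood alone.

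The difference in the share of endothelial nuclei, in percentage points, was 0.731 of nuclei that are not neurons, 0.527 with at least 2 markers, 0.251 with at least 4, 0.239 with the rule thinned to 1000 UMIs, 0.0572 without suspected doublets and 0.153 to 0.466 without 1 library. For arterial-like nuclei it was 5.35 without thinning, the reverse of the main value of -5.23, and -9.46 to -1.01 without 1 library. For venous-like nuclei it was -8.17 without thinning and -28.3 to -10.7 without 1 library. The cause of these shifts was not tested. Of 101 alternative values of the 8 named genes, 86 had the same direction and side of the threshold, 0 reversed and 15 passed it. A gene that missed the filter in a setting gave no value there. Without suspected doublets only Nrp2 of the 8 was counted, and with thinning only mt-Nd3 and Nrp2. The values of Slc38a11 and Pdzrn3 without suspected doublets, given above, are therefore outside this tally. Endothelial depth, 72096 UMIs in the shallowest library, limits all gene results.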
